A study of Mus musculus with 8 samples.

Results

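Bone marrow-derived dendritic cells (BMDCs) of wild-type (WT) genotype were compared before and after stimulation with lipopolysaccharide (LPS), the cell wall component of Gram-negative bacteria. The comparison rested on 4 of the 8 libraries of the series, 2 of untreated and 2 of LPS-treated WT cells, chosen by the genotype and treatment in the sample labels and joined on the Ensembl gene ID. Bone marrow precursors had been cultured for 8 days with 20 ng/ml GM-CSF, and stimulated cells received 20 ng/ml LPS for 24 h in the continued presence of GM-CSF. The other 4 libraries came from BMDCs labelled Grk 3xKO, untreated or LPS-treated, and served to show where the WT response differed; they were also part of the fit, and so of the filter, scaling and spread behind the WT calls. This genotype combines Grk3-/- with deletion of the floxed genes Grk2 (fl/fl) and Grk6 (fl/fl) by Vav-iCre, which is active from early blood precursors on, and thus targets 3 G-protein coupled receptor kinases. WT controls were Cre-negative, and bone marrow donors were adult mice. Cells grown in GM-CSF were a mixed culture of dendritic cells (DCs) and macrophages, from which RNA was taken in bulk, so that fewer cells of a type and less RNA per cell cannot be told apart.

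DCs sample their surroundings for antigen while immature and turn into migrating, T cell-activating cells once they sense microbial products. LPS is sensed by Toll-like receptor 4 (TLR4) with its cofactors CD14 and MD-2. One branch of the signal, through MyD88, activates NF-kB and inflammatory genes, and the other, through TRIF, leads to type I interferon and, in turn, to interferon-stimulated genes. Maturation is known for the rise of the chemokine receptor CCR7, of costimulatory ligands and of cytokines, and for the loss of antigen uptake.

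RNA was sequenced as poly(A)-selected, strand-specific libraries, and reads were counted per gene. The WT libraries held 4713305 and 6459415 counted reads without LPS and 5743957 and 6804666 with LPS, and between 16922 and 17905 genes had at least 1 read. Replicates lay close together: among genes with at least 20 CPM (counts per 1000000 reads counted) on average, 12 of 7043 (0.17%) differed by more than 1.5-fold between the untreated libraries and 23 of 6745 (0.341%) between the LPS-stimulated ones. The methods describe RNA isolation in technical triplicates. With 2 libraries per group analysed here, p-values measure the spread between these libraries, which may be technical. Untreated and LPS-treated libraries were deposited in separate count tables, and stimulation and table cannot be told apart. CPM values below are scaled by edgeR's TMM factors and given in the order of the replicate numbers, and log2 fold changes (LPS over untreated) are given with their standard error (SE, n = 2 libraries per group).

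Of 12541 genes tested with edgeR's quasi-likelihood test, 7561 (60.3%) passed a Benjamini-Hochberg adjusted p of 0.05, 3702 of them higher (29.5%) and 3859 lower (30.8%) after LPS. DESeq2 called 5854 genes. A change of 2-fold or more was reached by 1091 of the higher (8.7% of genes tested) and 1609 of the lower genes (12.8%), and one of 16-fold or more by 103 and 102. Scaling by library size alone moved the median over all genes from -0.015 to -0.23 on the log2 scale and made the split 2443 higher to 5420 lower, so that small rises depend on the scaling. For 9810 genes (78.2%) the untreated and the LPS-stimulated libraries did not overlap, and with 2 libraries against 2 an exact permutation test on a single gene cannot go below p = 0.333.

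**Figure D1:**
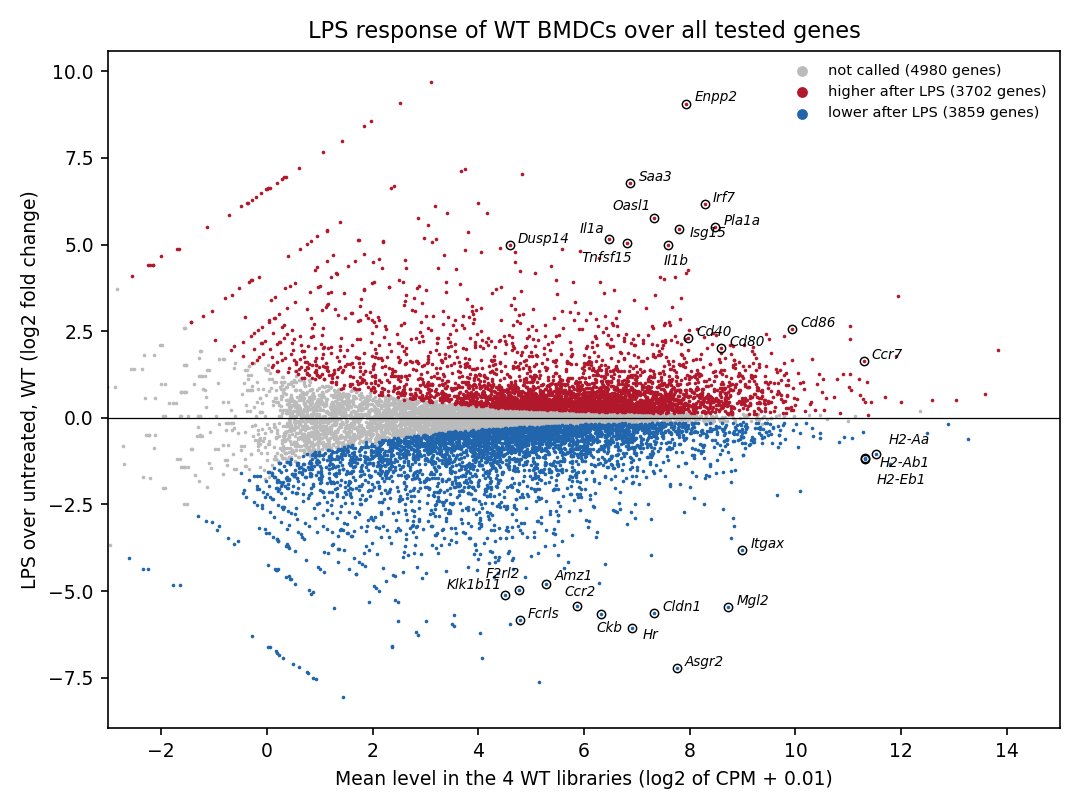
Response of every tested gene to LPS in WT BMDCs. Each point is 1 gene, with its mean level in the 4 WT libraries (log2 of CPM + 0.01) on the x axis and the log2 fold change (LPS over untreated) on the y axis; red points are the 3702 genes called higher, blue points the 3859 called lower and grey points the 4980 not called at an adjusted p of 0.05. Circled points carry the names of genes described in the text, from Enpp2 at 9.07 down to Asgr2 at -7.23; the diagonal rows at the left are genes without counts in one of the groups.

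Among well expressed genes (mean log2 CPM of at least 3 and more than 3 reads in a library of the lower group), the 10 with the largest rise included secreted enzymes, an acute-phase gene, interferon-stimulated and cytokine genes. Enpp2 (chr15:54838901-54952892), which encodes autotaxin, the enzyme that makes lysophosphatidic acid, was counted at 0.955 and 0.841 CPM without and at 486 and 492 CPM with LPS (log2 fold change 9.07 ± 0.125). Saa3, an acute-phase serum amyloid gene, went from 1.72 and 2.38 to 217 and 248 CPM (6.78 ± 0.118). Both LPS-stimulated libraries lay far above both untreated ones for either gene. Pla1a, a phosphatidylserine-specific phospholipase, rose from 14.5 and 16.3 to 684 and 717 CPM (5.50 ± 0.0822). Tnfsf15, a TNF family ligand, stood at 6.88 and 6.45 CPM before and 237 and 201 CPM after stimulation (5.04 ± 0.119). Dusp14, a dual-specificity phosphatase, rose from 1.72 and 1.26 to 46.1 and 47.3 CPM (4.99 ± 0.197). The remaining members of this group of 10 were the interferon genes Irf7, Oasl1 and Isg15 and the cytokine genes Il1a and Il1b, which are described with their families.

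By the same rule, the 10 genes with the largest fall included the lectin genes Asgr2 and Mgl2 and the chemokine receptor gene Ccr2. Asgr2 (chr11:70092644-70106187), a subunit of the asialoglycoprotein receptor, was counted at 424 and 433 CPM without and 2.54 and 3.09 CPM with LPS (-7.23 ± 0.108). Mgl2, a galactose-type lectin of DCs and macrophages, fell from 825 and 827 to 17.6 and 19.8 CPM (-5.46 ± 0.073). In both cases the LPS-stimulated libraries retained only a few percent or less of the untreated level. Cldn1, the tight junction protein claudin-1, fell from 319 and 309 to 7.62 and 5.11 CPM (-5.64 ± 0.107), and Hr, a nuclear corepressor, from 238 and 237 to 4.36 and 2.79 CPM (-6.07 ± 0.122). Ckb, brain-type creatine kinase, dropped from 160.5 and 153 to 2.36 and 3.71 CPM (-5.66 ± 0.137). Fcrls (an Fc receptor-like gene), F2rl2 (a protease-activated receptor), Amz1 (a metalloprotease) and Klk1b11 (a kallikrein) fell by 57.5-, 31.4-, 27.9- and 34.6-fold. Klk1b11 belongs to a cluster of near-identical kallikrein genes, between which reads may have been split.

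Some genes were at or near 0 reads in one of the groups, and their change is given as a ratio of scaled counts, summed over both libraries, with an interval for counting error only. Nos2, the inducible nitric oxide synthase, had 0 and 2 reads in the untreated and 138 and 181 in the LPS-stimulated libraries, a ratio of 165 (95% interval 45.2 to 1366). Dll4, a Notch ligand, had 0 and 2 reads without and 140 and 163 with LPS, a ratio of 156 (95% interval 43 to 1298). Col5a3, a collagen chain, had no read in either untreated library and 88 and 118 reads after LPS, at least 29.9-fold higher than a floor of 3 reads per library. On the other side, Sept3, a septin listed among genes of conventional DCs, had 363 and 510 reads without and 2 and 2 with LPS, a ratio of 211 (95% interval 82.2 to 777) in favor of untreated cells. Itgae, which encodes CD103, an integrin of DCs that bind to epithelium, went from 178 and 234 to 0 and 3 reads, a ratio of 133 (95% interval 45.2 to 647). By this measure 14 genes rose from and 15 fell to 3 reads or fewer in both libraries while reaching at least 10 CPM in the other group, among them Ptprh, Timp1 and Fgf23 on the rising and Clec4b1, Cd300e, Kcnip3 and Cd209a on the falling side.

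Per kilobase of exon, the leading genes changed their order. In untreated cells Cd74 was first and Ccl17, Cst3 and Ccl22 were among the first 7, whereas Ccl22 was first and Ccl5 second after LPS, when Ccl22 alone took 2.212% of all counts. Ccl5 had been in place 33 and Fscn1, ninth after LPS, in place 42.

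Most genes of the migratory DC program rose. Ccr7 (chr11:99144196-99155077), the receptor that guides mature DCs along CCL19 and CCL21 to lymph nodes, was counted at 1230 and 1218 CPM in untreated and 3675 and 3884 CPM in LPS-stimulated libraries (1.63 ± 0.041, edgeR adjusted p = 5.38e-23). Fscn1, the actin-bundling protein fascin of mature DCs, rose from 1783 and 1685 to 5680 and 6230 CPM (1.78 ± 0.0438). Both transcripts were thus already abundant in the untreated libraries, and no stimulated library overlapped an untreated one. Among 23 listed genes of the migratory DC program, all tested, 17 were higher, 3 lower and 3 not called, with a median log2 fold change of 0.64 beside -0.015 over all genes. Cacnb3, a calcium channel subunit, rose from 1128 and 1138 to 2587 and 2800 CPM (1.25 ± 0.0442), Socs2 from 362 and 365 to 859 and 809 CPM (1.20 ± 0.0496) and Net1, a RhoA exchange factor, by 1.24 on the log2 scale. Eno2, Cd63 and Spint2 were the 3 lower genes (-1.08, -1.22 and -0.91), and Ccl17, Il4i1 and Bcl2l14 did not pass the test.

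Of 20 listed receptor genes for chemokines and related attractants 15 were tested, of which 7 were higher and 6 lower, beside 29.5% and 30.8% of all genes. Ccr2, which draws monocytes out of the bone marrow, fell from 115 and 112 to 2 and 3.09 CPM (-5.45 ± 0.152). Ccr1, a receptor for CCL3 and CCL5, fell from 89.6 and 98.7 to 32.3 and 32.2 CPM (-1.55 ± 0.0813). No library of one group reached the level of the other for these receptors of inflammatory chemokines. Cxcr4, the receptor for CXCL12, rose from 72 and 69.7 to 98.9 and 101 CPM (0.50 ± 0.0735), Ccrl2, a chemerin-binding receptor, from 5.16 and 4.76 to 27.9 and 28 CPM (2.50 ± 0.181) and Cxcr5, the receptor for CXCL13, from 0.955 and 1.12 to 12 and 10.4 CPM (3.38 ± 0.299). Cxcr3 and Cxcr6 had no reads in the WT libraries.

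Of 24 actin and adhesion genes 14 were higher and 8 lower (median 0.29), beside 29.5% and 30.8% of all genes, or 11 and 9 with library size alone. Vcl (vinculin), Itga4 and Itgb1 (the chains of the integrin VLA-4) rose by 0.93, 0.91 and 0.86 on the log2 scale, beside 0.69 for Actb. Itgax, which encodes the integrin chain CD11c and marks DCs, went from 952 and 941 to 63.1 and 70.9 CPM (-3.82 ± 0.0595). Itgam, which encodes CD11b, went from 123 and 129.6 to 49.4 and 45.2 CPM (-1.42 ± 0.0707), and their common beta chain Itgb2 changed by -1.04. Every LPS-stimulated library lay below every untreated one for all 3 genes. The unconventional myosin genes Myo1e and Myo1f also fell (-1.15 and -1.54).

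**Figure D2:**
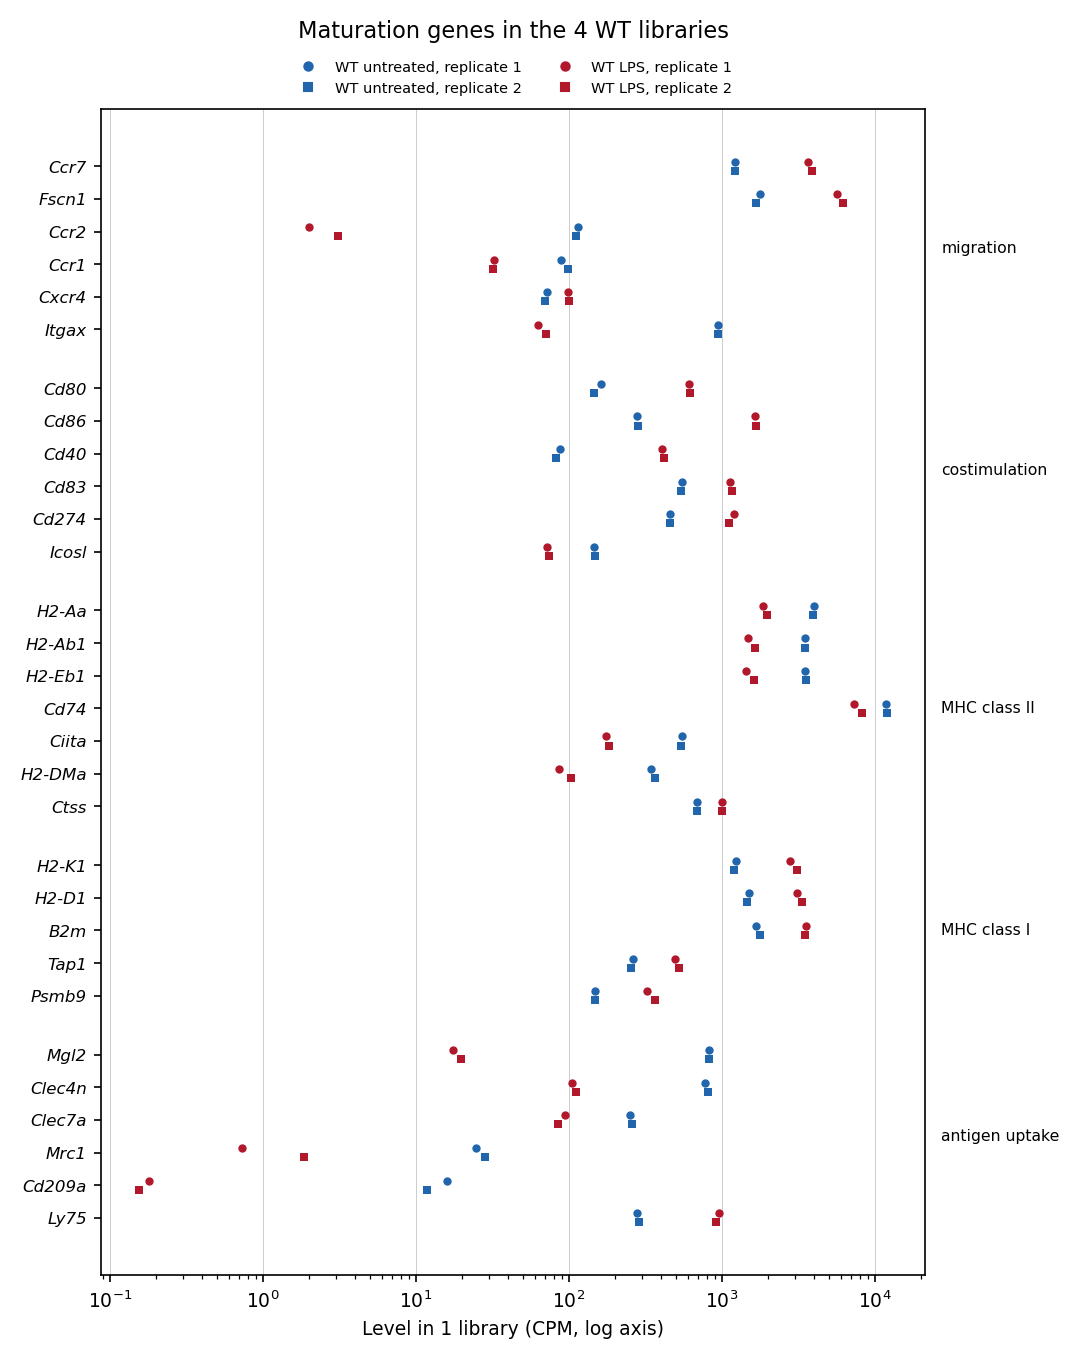
Levels of 30 maturation genes in each of the 4 WT libraries. The x axis gives CPM in 1 library on a log axis, blue symbols are untreated and red symbols LPS-stimulated libraries, and circles and squares are replicates 1 and 2. The symbols of the 2 treatments stay apart for every gene shown, to the right for Ccr7, Cd86 or H2-K1 and to the left for Itgax, H2-Ab1 or Mgl2.

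Costimulatory genes rose. Cd86 (chr16:36603869-36666081), a ligand of CD28 on T cells, was counted at 280.5 and 285 CPM without and 1655 and 1680 CPM with LPS (2.56 ± 0.0486). Its paralog Cd80 rose from 163 and 146 to 616 and 623 CPM (2.01 ± 0.0566) and Cd40, the receptor through which helper T cells license DCs, from 87.3 and 82.4 to 406 and 422 CPM (2.29 ± 0.0589). The gap between the treatments exceeded the gap between replicates many times for all 3. Of 16 listed costimulatory and coinhibitory genes 15 were tested, 13 higher and 2 lower, with a median of 1.86. Tnfsf4 (OX40 ligand) and Cd70 (the ligand of CD27) rose by 1.42 ± 0.0852 and 2.84 ± 0.184, starting from 4.01 and 3.5 CPM in the case of Cd70. Coinhibitory genes were among the higher ones: Cd274, which encodes PD-L1, rose from 461 and 457 to 1196 and 1117 CPM (1.33 ± 0.0458) and Cd200 from 38.4 and 37 to 432 and 402 CPM (3.47 ± 0.0682). The 2 lower genes were Icosl, the ligand of ICOS, with 146 and 149.5 CPM before and 71.7 and 74.4 CPM after LPS (-1.02 ± 0.0691), and Pdcd1lg2, which encodes PD-L2 (-0.33 ± 0.0789).

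Transcripts of the MHC class II pathway fell. H2-Ab1 (chr17:34257689-34269419), a beta chain of MHC class II, was counted at 3528 and 3524 CPM without and 1494 and 1644 CPM with LPS (-1.17 ± 0.045). The alpha chain gene H2-Aa went from 3988 and 3966 to 1851 and 1971 CPM (-1.06 ± 0.0405), and H2-Eb1 from 3521 and 3546 to 1447 and 1625 CPM (-1.20 ± 0.0463). All 3 remained abundant in the stimulated libraries, below both untreated ones. Of 13 tested genes 12 were lower and 1 higher (median -1.17). Ciita, the master activator of class II transcription, fell from 552 and 541 to 176 and 184 CPM (-1.60 ± 0.0541), and H2-DMa, a subunit of the peptide-exchange chaperone H2-M, from 346 and 365 to 86.7 and 104 CPM (-1.90 ± 0.0662). Cd74, the invariant chain, fell by less (-0.61 ± 0.0389). Ctss, the protease that cleaves the invariant chain in DCs, was the 1 higher gene, with 689 and 688 CPM before and 1008 and 998 CPM after LPS (0.54 ± 0.0421).

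MHC class I genes moved the other way, with 12 of 16 listed genes higher and 3 lower (median 0.98). H2-K1 and H2-D1, the classical heavy chains, rose from 1233 and 1200 to 2801 and 3090 CPM (1.28 ± 0.0437) and from 1514 and 1457 to 3126 and 3352 CPM (1.12 ± 0.0416). B2m, the light chain, rose from 1664 and 1780 to 3547 and 3498 CPM (1.03 ± 0.0389). The peptide transporter genes Tap1 and Tap2 (0.98 and 0.63), the immunoproteasome genes Psmb8, Psmb9 and Psmb10 (0.97, 1.22 and 0.82) and Nlrc5, the class I transactivator (1.19), were also higher. The lower genes were the general chaperones of the endoplasmic reticulum, Calr, Canx and Pdia3 (-0.74, -0.28 and -0.39).

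Genes of antigen uptake fell in most cases: 18 of 24 tested C-type lectin and scavenger receptor genes were lower and 4 higher (median -1.57), 3 and 1 of them with 3 reads or fewer in both libraries of the lower group. Clec4n, which encodes Dectin-2, fell from 783 and 816 to 104 and 111 CPM (-2.89 ± 0.0535) and Clec7a, which encodes the beta-glucan receptor Dectin-1, from 251 and 259 to 94 and 84.9 CPM (-1.51 ± 0.0608). Mrc1, the mannose receptor, went from 24.6 and 28.3 to 0.726 and 1.86 CPM (-4.30 ± 0.243) and Msr1, a scavenger receptor, from 62.1 and 64.9 to 20.7 and 14.8 CPM (-1.86 ± 0.105). The 4 higher genes included Ly75, which encodes DEC-205 and rose from 279.5 and 289.8 to 963 and 914 CPM (1.72 ± 0.051), and Clec4e, which encodes Mincle and rose from 21.4 and 27.8 to 80.2 and 75.3 CPM (1.64 ± 0.0926). Of 11 tested Fc and complement receptor genes 7 were lower and 2 higher, beside 30.8% and 29.5% of all genes, and the neonatal Fc receptor gene Fcgrt fell by -1.67 ± 0.096 on the log2 scale. Lysosomal genes were lower in 18 and higher in 9 of 33 cases (median -0.40), beside 30.8% and 29.5% of all genes, among the lower ones Lipa, the lysosomal acid lipase (-2.50), and Tfeb, a regulator of lysosome genes (-1.66), and among the higher ones the cholesterol-binding protein gene Npc2 (1.58) and Ctsz (1.27). With library size alone the lysosomal split was 22 lower to 6 higher.

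Several cytokine genes of the interleukin-1, interleukin-6 and interleukin-12 families rose. Il1b was counted at 12.4 and 11.1 CPM without and 368 and 377 CPM with LPS (4.997 ± 0.0771) and Il1a at 4.58 and 4.91 and 179.8 and 164 CPM (5.16 ± 0.11). Il6 rose from 4.39 and 3.92 to 120.3 and 113 CPM (4.81 ± 0.125). For these genes the gap between the treatments was far wider than that between replicates. Il12b, the p40 subunit that interleukin-12 and interleukin-23 share, rose from 27.5 and 29.7 to 255 and 261 CPM (3.17 ± 0.0758). Its partner for interleukin-12, Il12a, had no read in the untreated and 44 and 41 reads in the stimulated libraries. Il23a, the partner for interleukin-23, had 0 and 1 reads without and 2 and 8 with LPS and was too low to be tested. Ebi3, the shared subunit of interleukin-27, rose from 39.9 and 39.9 to 353 and 379 CPM (3.20 ± 0.071), while its partner Il27 reached only 0.907 and 1.7 CPM.

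Of 26 listed cytokine genes 21 were tested, 15 of them higher and 2 lower, with a median of 2.41; 4 of the higher genes, such as Il12a and Csf3, had 3 reads or fewer in both untreated libraries. Tnf, the classic early product of TLR4 signaling, was not called at 24 h, with 29.8 and 31.1 CPM before and 28.1 and 30.2 CPM after LPS (-0.06 ± 0.115, edgeR adjusted p = 0.652), but was called lower with library size alone (-0.28, adjusted p = 0.0359 by edgeR). Ltb, which encodes lymphotoxin beta, fell from 25.8 and 22.7 to 2.72 and 4.64 CPM (-2.67 ± 0.199) and Tgfb1 from 220.3 and 212 to 172 and 165 CPM (-0.36 ± 0.0566). Il15, a growth factor for memory T cells and NK cells, rose from 15.5 and 17.5 to 68.4 and 62.2 CPM (1.97 ± 0.11). Il10 had 2 and 1 reads after LPS and none before, and Ifnb1, the gene of interferon beta, had no read in the WT libraries.

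Chemokine genes moved in both directions, from very different levels. Ccl22 (chr8:94745590-94751699), a ligand of CCR4 on regulatory T cells, was counted at 5966 and 6080 CPM without and 22770 and 23580 CPM with LPS (1.94 ± 0.0301). Ccl5, a ligand of CCR1, rose from 632 and 623 to 6825 and 7612 CPM (3.52 ± 0.0467), and Ccl17, the other CCR4 ligand and the neighbor of Ccl22 on chromosome 8, stood at 2129 and 2056 CPM before and 1881 and 2052 CPM after LPS (-0.09 ± 0.0465, edgeR adjusted p = 0.0992). Stimulated libraries were 3.85-fold higher for Ccl22, while Ccl17 was called lower, by at most 0.30 on the log2 scale, without stimulated replicate 2 and under 3 other settings. Among 14 tested CC chemokine genes 7 were higher and 3 lower, and among 12 tested CXC and other chemokine genes 9 were higher and 2 lower, beside 29.5% and 30.8% of all genes; 2 of the 3 lower CC and 2 of the 9 higher CXC genes had 3 reads or fewer in both libraries of their lower group. Cxcl1, Cxcl2 and Cxcl3, which attract neutrophils, rose by 4.30 ± 0.245, 2.24 ± 0.111 and 2.64 ± 0.0751, and Cxcl10, an interferon-induced ligand of CXCR3, from 12.6 and 8.27 to 35.2 and 43.2 CPM (1.96 ± 0.157). Ccl6 fell from 714 and 744 to 444 and 462 CPM (-0.69 ± 0.0473).

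Interferon-stimulated genes were higher without exception in a list of 40, all of which were tested (1 with 3 reads or fewer in both untreated libraries), with a median of 2.37 and a range from 0.53 for Mx1 to 6.16 for Irf7. Irf7 (chr7:141262706-141266481), the transcription factor that amplifies type I interferon production, was counted at 8.41 and 8.69 CPM without and 582 and 643 CPM with LPS (6.16 ± 0.0841, edgeR adjusted p = 9.15e-29). Isg15, a ubiquitin-like modifier, rose from 7.45 and 11.6 to 416 and 451 CPM (5.46 ± 0.0968), and Oasl1, a regulator of Irf7 translation, from 6.5 and 5.33 to 307 and 324 CPM (5.75 ± 0.0949). The gap between the treatments was far wider than that between replicates, also for Isg15, whose untreated replicates differed by more than 1.5-fold. Ifit1 and Rsad2, antiviral effectors, rose from 4.58 and 7.15 to 155 and 142 CPM (4.61 ± 0.117) and from 10.1 and 9.39 to 149 and 146 CPM (3.92 ± 0.0864). Zbp1, a sensor of Z-form nucleic acid, rose by 4.06 ± 0.0774, and Stat2 and Irf9, subunits of the interferon-activated factor ISGF3, rose by 1.55 ± 0.056 and 1.20 ± 0.0669. Mx1 had the smallest change, from 887 and 829.8 to 1242 and 1238 CPM. Oas and Ifit genes have close paralogs, between which reads may have been split.

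Of 19 listed NF-kB genes and their inhibitors 17 were higher and none lower by edgeR's test (median 0.85; 2 genes did not pass and lay above 0), or 13 higher with library size alone. Nfkb1, the p105/p50 precursor, was counted at 520.2 and 529 CPM without and 1198 and 1280 CPM with LPS (1.24 ± 0.0472), and Nfkb2 at 418 and 409.5 and 782 and 829 CPM (0.96 ± 0.0482). Nfkbiz, an inducible nuclear cofactor needed for Il6 and Il12b, rose from 15.7 and 12.3 to 97.6 and 98.1 CPM (2.83 ± 0.109). Nfkbia, the inhibitor IkB-alpha, rose from 295 and 285 to 512 and 529 CPM (0.85 ± 0.0525), and Tnfaip3, which encodes the deubiquitinase A20, from 123 and 119.7 to 295 and 314 CPM (1.33 ± 0.0578). Rela, the p65 subunit, stood at 128 and 128 and 137 and 147 CPM, a call at 0.15 that turned to -0.061 with library size alone and was lost with DESeq2 (adjusted p = 0.137) and without each of 3 WT libraries (edgeR adjusted p from 0.116 to 0.184).

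Promoter sequences of genes from these groups and from the cell cycle genes described below were read from RefSeq windows on GRCm38.p6, from 250 bases before to 50 after the annotated start. They were chosen after the values were seen, because each window holds the motif for which its group is known, shown in capitals on either strand and in the gene's direction. Isg15 (chr4:156200769-156201068, - strand) and Ifit1 (chr19:34640639-34640938, + strand) hold the core of the interferon-stimulated response element, GAAANNGAAA, in 3 overlapping and 2 separate copies. Il6 (chr5:30012864-30013163, + strand) and Nfkbia (chr12:55492598-55492897, - strand) hold 1 match each to the NF-kB consensus. Top2a (chr11:99024140-99024439, - strand) and Ube2c (chr2:164769679-164769978, + strand) hold the cell cycle homology region element, TTTGAA, in 2 copies and 1 copy.
Isg15: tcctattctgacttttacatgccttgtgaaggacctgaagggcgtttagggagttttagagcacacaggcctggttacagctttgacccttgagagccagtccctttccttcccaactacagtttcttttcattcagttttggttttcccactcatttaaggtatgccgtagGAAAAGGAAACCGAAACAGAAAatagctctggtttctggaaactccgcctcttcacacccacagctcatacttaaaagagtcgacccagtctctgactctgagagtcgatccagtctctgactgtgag
Ifit1: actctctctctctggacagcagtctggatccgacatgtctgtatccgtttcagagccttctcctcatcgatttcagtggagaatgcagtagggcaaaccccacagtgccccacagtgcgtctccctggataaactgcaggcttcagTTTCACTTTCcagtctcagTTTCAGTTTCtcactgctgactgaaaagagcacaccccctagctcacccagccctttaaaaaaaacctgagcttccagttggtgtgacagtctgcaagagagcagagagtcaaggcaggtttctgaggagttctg
Il6: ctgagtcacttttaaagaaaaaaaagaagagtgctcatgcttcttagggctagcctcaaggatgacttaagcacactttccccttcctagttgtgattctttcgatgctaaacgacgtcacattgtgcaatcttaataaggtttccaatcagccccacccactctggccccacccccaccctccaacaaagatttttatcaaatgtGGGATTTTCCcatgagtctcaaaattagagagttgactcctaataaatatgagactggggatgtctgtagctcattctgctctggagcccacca
Nfkbia: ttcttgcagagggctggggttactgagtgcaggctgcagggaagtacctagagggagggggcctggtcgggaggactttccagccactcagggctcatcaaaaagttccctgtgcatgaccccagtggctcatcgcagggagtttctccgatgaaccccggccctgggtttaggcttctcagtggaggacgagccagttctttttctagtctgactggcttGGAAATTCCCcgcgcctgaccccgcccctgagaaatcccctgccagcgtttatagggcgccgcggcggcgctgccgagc
Top2a: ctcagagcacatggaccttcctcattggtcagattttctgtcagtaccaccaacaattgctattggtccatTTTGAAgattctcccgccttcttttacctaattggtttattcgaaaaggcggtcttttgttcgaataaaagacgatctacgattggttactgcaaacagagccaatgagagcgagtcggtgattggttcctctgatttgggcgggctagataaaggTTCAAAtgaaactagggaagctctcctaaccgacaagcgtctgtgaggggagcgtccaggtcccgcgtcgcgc
Ube2c: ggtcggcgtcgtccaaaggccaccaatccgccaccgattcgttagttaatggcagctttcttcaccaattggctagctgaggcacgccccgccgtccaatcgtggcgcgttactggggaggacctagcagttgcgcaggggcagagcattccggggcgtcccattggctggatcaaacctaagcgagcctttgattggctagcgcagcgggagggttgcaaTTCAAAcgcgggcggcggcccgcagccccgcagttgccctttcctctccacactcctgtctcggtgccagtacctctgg

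The interferon core was found in 3.44%, the NF-kB consensus in 4.51% and TTTGAA in 17.9% of all 32851 windows of this table. Among mitosis genes 21 of 25 had a window, and 15 of these held TTTGAA. Only 9452 of the 12541 genes tested, 29 of the 40 interferon-stimulated and 15 of the 19 NF-kB genes had a window. Of these, 18 interferon-stimulated and 9 NF-kB genes held the respective motif. Genes without a window are missing from each list, and a share of windows is unlike a share of genes. A comparison of these lists with each other, with tested genes or with all windows is therefore void. Of the other genes searched, Rsad2, Ebi3, Cdk1 and Mki67 had a match and Irf7, Oasl1, Oasl2, Il12b, Ccl22 and Ccnb1 had none in this window. A match is a stretch of letters, and binding was not measured.

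**Figure D3:**
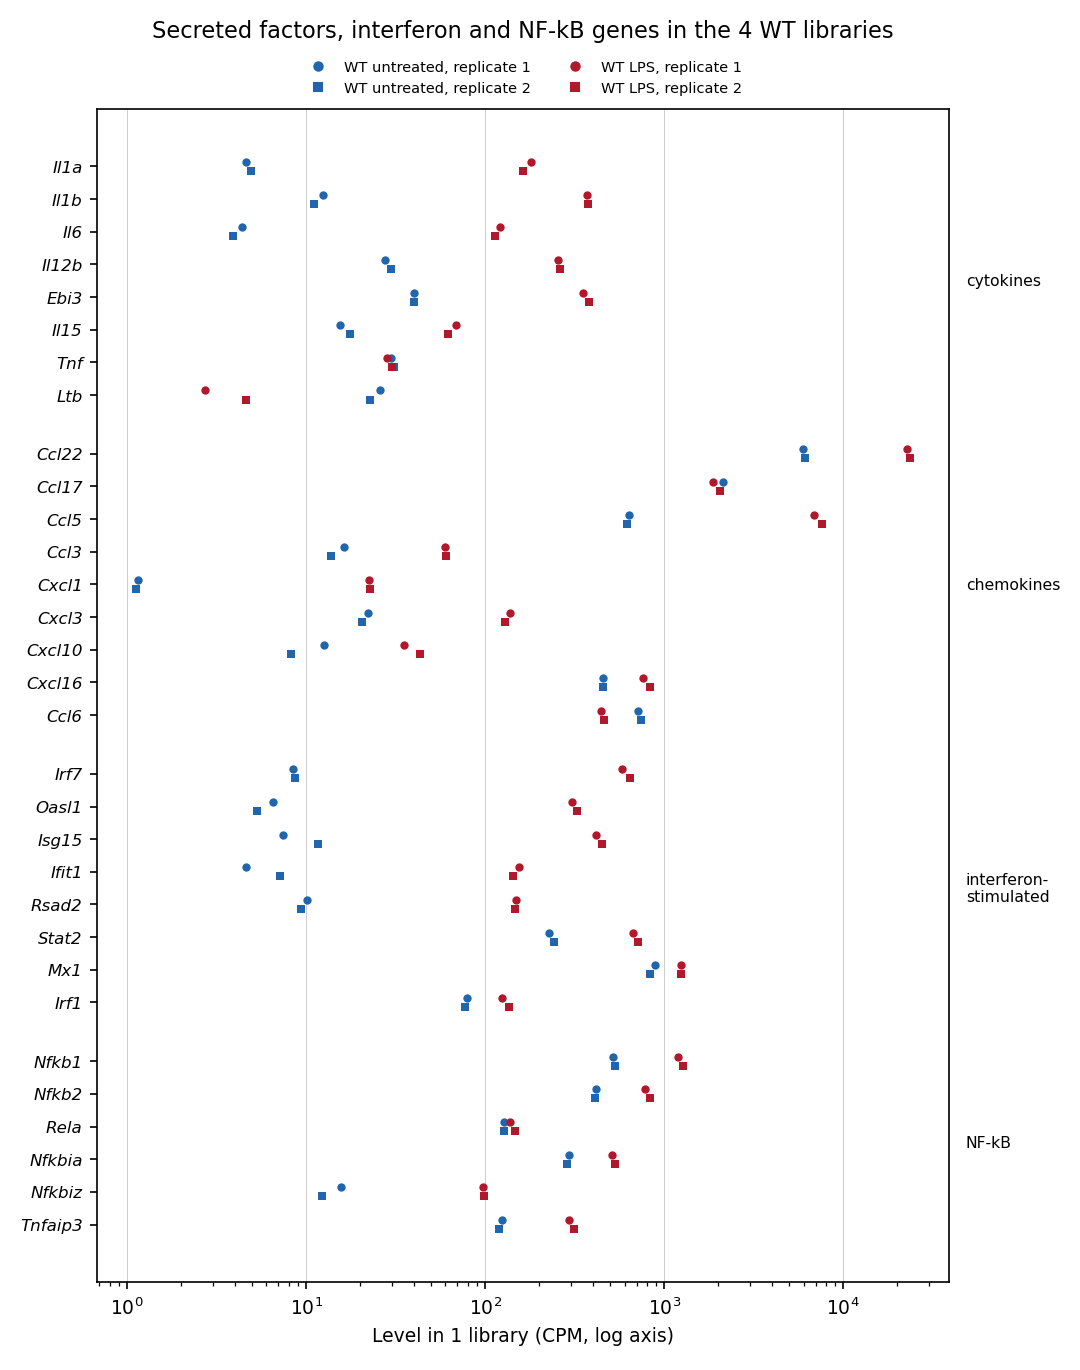
Levels of cytokine, chemokine, interferon-stimulated and NF-kB genes in each of the 4 WT libraries. The x axis gives CPM in 1 library on a log axis, with blue symbols for untreated and red symbols for LPS-stimulated libraries and circles and squares for replicates 1 and 2. Irf7, Oasl1 and Isg15 show the widest gaps, the symbols of Tnf and Ccl17 lie on top of each other, and Ltb and Ccl6 lie to the left after LPS.

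The receptor genes of LPS sensing rose. Tlr4 was counted at 39.9 and 47.5 CPM without and 79.8 and 62.7 CPM with LPS (0.68 ± 0.103), Cd14 at 32.1 and 29.4 and 57 and 59.3 CPM (0.93 ± 0.0909) and Ly96, which encodes MD-2, at 9.55 and 9.67 and 23.4 and 22.3 CPM (1.24 ± 0.15). Stimulated libraries were higher for all 3, by 1.6-, 1.9- and 2.37-fold. Ticam1, which encodes TRIF, rose (0.51 ± 0.108), whereas Myd88 (-0.27 ± 0.0694), Irak4 (-0.71 ± 0.117) and Tlr2 (-1.11 ± 0.0784) fell. Of 24 tested Toll-like receptor and adaptor genes 8 were higher, 9 lower and 7 not called, beside 29.5% and 30.8% of all genes, and the split was 7 to 12 with library size alone.

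Most of the listed SOCS, STAT and dual-specificity phosphatase genes, which act in cytokine and MAP kinase signaling, were higher. Socs3, an inhibitor of cytokine receptors of the gp130 family, rose from 45.3 and 41.5 to 259 and 280.0 CPM (2.64 ± 0.0694), and 12 of 15 SOCS and STAT genes were higher and 2 lower (median 1.26). Stat3, Stat4 and Stat5a rose by 1.54 ± 0.0501, 1.80 ± 0.0648 and 1.26 ± 0.0528. Dusp4 and Dusp5, phosphatases that act on nuclear MAP kinases, rose from 2.1 and 0.841 to 41.2 and 41.3 CPM (4.89 ± 0.216) and from 103 and 96.7 to 341 and 369 CPM (1.84 ± 0.0605), while Dusp6, a phosphatase of cytoplasmic ERK, fell (-0.86 ± 0.156). Of 10 tested genes of this phosphatase family 6 were higher and 3 lower, beside 29.5% and 30.8% of all genes.

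Irf8, which is needed for type 1 conventional and plasmacytoid DCs, was counted at 278 and 294 CPM without and 1450 and 1498 CPM with LPS (2.36 ± 0.0493). Batf, an AP-1 factor that can replace Batf3 in DCs, rose from 6.3 and 6.31 to 48.6 and 52.9 CPM (3.01 ± 0.138). Klf4, a Kruppel-like factor of monocytes and type 2 DCs, fell from 24.1 and 23 to 3.08 and 4.49 CPM (-2.61 ± 0.189). No treatment overlapped the other for these 3 factors. Batf3, Runx3, Tcf4 and Nfil3 also rose (0.91, 1.18, 1.21 and 1.49), and Spi1, which encodes PU.1, fell (-0.77). Zbtb46, the factor that marks conventional DCs and their precursors, stood at 157 and 148 CPM before and 160.4 and 153 CPM after LPS (0.04 ± 0.0646, edgeR adjusted p = 0.623), with overlapping libraries. Of the 16 transcription factor genes of the DC lineage listed 10 were higher and 5 lower, beside 29.5% and 30.8% of all genes, or 8 and 6 with library size alone.

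Of 17 tested surface and other marker genes of conventional DCs 5 were higher and 9 lower, beside 29.5% and 30.8% of all genes, or 2 and 11 with library size alone; 3 of the lower genes (Itgae, Sept3 and Cd207) had 3 reads or fewer in both stimulated libraries. Beside Itgae and Sept3, the lower genes included Cd207, which encodes langerin (10.3 and 10.1 to 0.181 and 0 CPM), and Clec10a, a galactose-type lectin (-2.21 ± 0.163). Htr7, a serotonin receptor, rose (2.35 ± 0.0886), and Flt3, the receptor for the DC growth factor FLT3 ligand, was not called (0.19 ± 0.134, edgeR adjusted p = 0.229). Xcr1 and Clec9a, which mark type 1 conventional DCs, were near 0 in all 4 libraries (2 and 0 reads of Xcr1 without and 0 and 0 with LPS, 6 and 15 and 0 and 4 of Clec9a).

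Most of the listed macrophage genes were lower after LPS. C1qb, a chain of complement C1q, was counted at 158 and 162 CPM without and 8.89 and 8.2 CPM with LPS (-4.23 ± 0.104), and C1qa and C1qc fell by -4.59 ± 0.17 and -4.35 ± 0.135. Csf1r, the receptor for M-CSF, went from 420.5 and 407 to 63.1 and 61.3 CPM (-2.73 ± 0.0594) and Lyz2, lysozyme M, from 1306 and 1355 to 281 and 292 CPM (-2.22 ± 0.0403). Every untreated library lay far above every stimulated one for these genes. Mertk, a receptor for apoptotic cells (-1.58 ± 0.157), and Cd68 (-1.57 ± 0.103) also fell. In all, 18 of 27 tested genes were lower, 4 higher and 5 not called (median -1.53). The 4 higher ones were Adgre1, which encodes F4/80 and went from 108 and 99.7 to 208 and 211 CPM (1.02 ± 0.0582), Apoe (1.77 ± 0.176), Maf (1.42 ± 0.289) and Cd14. The DC genes Itgax, Flt3 and Zbtb46 were read in all 4 libraries, beside macrophage transcripts such as Lyz2 and Csf1r. Itgax fell after LPS, and Xcr1 and Clec9a were near 0, so that reading these genes does not establish the labelled cell type.

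Mitosis genes had the lowest median of the lists examined. All 25 were tested and lower, with a median of -3.19 and a range from -1.84 for Cdk1 to -4.39 for Cenpf. Mki67, the proliferation antigen Ki-67, was counted at 214 and 224 CPM without and 27.9 and 30.5 CPM with LPS (-2.90 ± 0.0863). Top2a, the DNA topoisomerase of dividing cells, fell from 199 and 205 to 22.7 and 25.2 CPM (-3.07 ± 0.0862) and Ube2c, an ubiquitin carrier of the anaphase-promoting complex, from 46.2 and 43.2 to 3.45 and 2.79 CPM (-3.84 ± 0.179). Summed over the 25 genes, the untreated libraries held 1311 and 1291 CPM and the stimulated ones 151.5 and 164.5 CPM. DNA replication genes were lower in 26 of 28 cases (median -1.68), such as Rrm2, a subunit of ribonucleotide reductase (-3.39 ± 0.119), and Mcm5, a part of the replicative helicase (-2.21 ± 0.0949). Rfc3 and Tyms were the 2 higher ones (0.67 and 0.33), and the call of Tyms was lost with DESeq2 (adjusted p = 0.101), with library size alone (adjusted p = 0.382), without untreated replicate 1 (adjusted p = 0.258) or stimulated replicate 2 (adjusted p = 0.0529, both by edgeR).

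**Figure D4:**
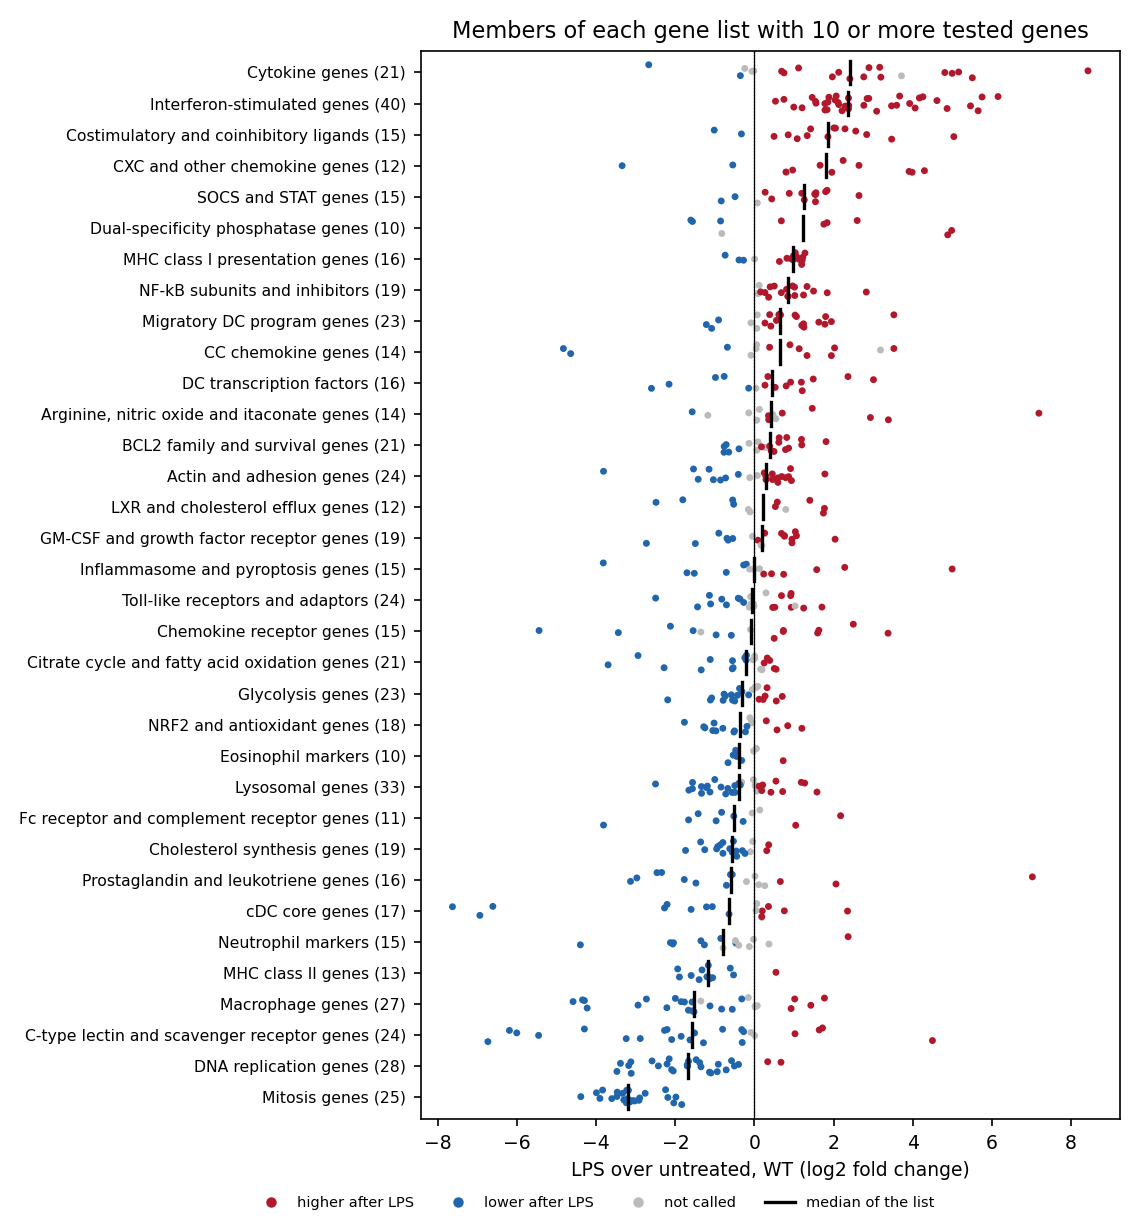
Log2 fold changes (LPS over untreated, WT) of the members of each gene list with at least 10 tested genes. Each point is 1 gene, red if called higher, blue if called lower and grey if not called, and the black bar is the list's median; the number of tested genes stands beside each name. Medians run from 2.41 for cytokine genes to -3.19 for mitosis genes, whose points all lie to the left of 0.

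Of 14 genes of arginine, nitric oxide and itaconate metabolism 7 were higher, 1 lower and 6 not called, beside 29.5% higher and 30.8% lower of all genes. With library size alone 6 were higher and 3 lower. Acod1, the enzyme that makes itaconate, was counted at 21.2 and 18.2 CPM without and 141 and 157 CPM with LPS (2.93 ± 0.085). Slc7a2, an arginine importer, rose from 19.9 and 22.7 to 231 and 218 CPM (3.39 ± 0.0689), and Ass1, which remakes arginine from citrulline, fell from 388 and 407 to 123 and 143 CPM (-1.57 ± 0.0617).

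Glycolysis genes were lower in 13 and higher in 6 of 23 cases (median -0.32), beside 30.8% and 29.5% of all genes, or 16 and 2 with library size alone. Hk1 and Hk2, the hexokinases of the first step, rose by 0.70 ± 0.0726 and 0.55 ± 0.0773, whereas the glucose transporter gene Slc2a1 fell from 75.5 and 72 to 33 and 34.8 CPM (-1.11 ± 0.0852) and Ldha, lactate dehydrogenase A, from 705 and 709 to 386 and 430.3 CPM (-0.79 ± 0.0517). Pdk1, which keeps pyruvate from the citrate cycle, fell by -2.19 ± 0.179. In the citrate cycle and fatty acid oxidation 11 of 21 genes were lower and 5 higher, beside 30.8% and 29.5% of all genes, or 14 and 3 with library size alone. Among the lower ones were the mitochondrial Idh2 (-2.29 ± 0.148) and the regulator Pparg (-2.94 ± 0.384), while Ppargc1b, another regulator, had 10 and 20 reads without and 2 and 0 with LPS.

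Cholesterol synthesis genes were lower in 15 of 19 cases (median -0.56), such as Sqle, squalene epoxidase (-1.26 ± 0.105), and 2 were higher, or 1 with library size alone. Genes regulated by LXR, a sensor of oxysterols, or acting in cholesterol efflux went both ways, with 5 of 12 tested higher, 4 lower and 3 not called, the lower share being close to the 30.8% of all genes, or 5 and 6 with library size alone. Among them the desaturase genes Scd1 and Scd2 fell (-2.49 ± 0.274 and -1.81 ± 0.0737), the cholesterol exporter gene Abcg1 rose (0.53 ± 0.0574), and Abca1, another exporter, was not called (-0.16 ± 0.0899, edgeR adjusted p = 0.138), but was called lower with library size alone (-0.37, adjusted p = 0.000747) and without stimulated replicate 1 (-0.27, adjusted p = 0.0168, both by edgeR).

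The 2 cyclooxygenase genes moved in opposite directions. Ptgs2, the inducible cyclooxygenase, had 1 and 4 reads in the untreated and 381 and 277 in the stimulated libraries, or 0.191 and 0.561 and 69.1 and 42.9 CPM, and the stimulated replicates differed by more than 1.5-fold. Ptgs1, the constitutive form, fell from 118 and 125 to 16.5 and 14.5 CPM (-2.97 ± 0.0966). Ptges, which makes prostaglandin E2, rose (2.06 ± 0.247), whereas Hpgds, the synthase of prostaglandin D2, and Tbxas1, that of thromboxane, fell (-3.13 ± 0.32 and -1.77 ± 0.0894). On the leukotriene side Alox5ap, Lta4h and Alox5 fell by -2.47 ± 0.0793, -1.48 ± 0.0708 and -0.71 ± 0.0727. In all 9 of 16 tested genes were lower and 3 higher, beside 30.8% and 29.5% of all genes, or 11 and 3 with library size alone.

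Antioxidant and survival genes moved in part. Targets of NRF2 were lower in 11 and higher in 4 of 18 cases, beside 30.8% and 29.5% of all genes, or 14 and 3 with library size alone. Among the lower ones were Hmox1, heme oxygenase 1, from 62.5 and 67.3 to 31.2 and 32.8 CPM (-1.02 ± 0.0835), and Gclm, of glutathione synthesis (-1.28 ± 0.0875), while the NF-kB-induced Sod2 rose (0.84 ± 0.0669). Bcl2l1, which encodes BCL-XL, rose from 56.4 and 52.8 to 185 and 196 CPM (1.81 ± 0.0727) and Cflar, an inhibitor of caspase-8, from 216 and 218 to 516 and 478 CPM (1.20 ± 0.0534). Bcl2 itself fell (-0.77 ± 0.155), and the pro-apoptotic Bcl2l11, which encodes BIM, rose from 93.4 and 90 to 215 and 203 CPM (1.19 ± 0.0627). Of 21 survival genes 12 were higher and 5 lower, beside 29.5% and 30.8% of all genes, or 11 and 6 with library size alone. The 3 Bcl2a1 genes among the higher ones are near-identical copies.

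Of 15 inflammasome genes 6 were higher and 6 lower, beside 29.5% and 30.8% of all genes, or 4 and 7 with library size alone. Casp4, the caspase that binds intracellular LPS, rose from 12.2 and 10.4 to 51.9 and 56.6 CPM (2.28 ± 0.121) and Casp1 from 37.5 and 39.2 to 66.8 and 61.7 CPM (0.74 ± 0.0883). Nlrp3 was not called (-0.12 ± 0.0762, edgeR adjusted p = 0.17), although it was called lower without stimulated replicate 2 (-0.23, adjusted p = 0.0118) and with library size alone (-0.34, adjusted p = 0.000341, both by edgeR), and the sensor genes Nlrc4 and Nlrp1b fell (-1.71 ± 0.19 and -3.82 ± 0.218). Of 19 genes of growth factor and cytokine receptors 10 were higher and 6 lower, beside 29.5% and 30.8% of all genes, or 8 and 8 with library size alone, with Il2ra, the alpha chain of the interleukin-2 receptor, at the upper end (2.04 ± 0.0507) and Il1r2, a decoy receptor, among the lower ones (-1.50 ± 0.112).

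Markers of other cells were present at very unequal levels. Neutrophil markers summed to 1017 and 975.6 CPM without and 726.3 and 816.3 CPM with LPS. Of these 15 genes 8 were lower, beside 30.8% of all genes, or 11 with library size alone. Only Lcn2, which is also an acute-phase gene, was higher (2.37 ± 0.0596). Eosinophil markers summed to 1352 and 1428 CPM without and 1209 and 1318 CPM with LPS. Of these 10 genes 6 were lower, beside 30.8% of all genes and none by 2-fold or more, or 8 with library size alone. The 1 higher gene was Ccr3 (0.72 ± 0.193), a call lost with DESeq2 (adjusted p = 0.0848). Mast cell and basophil markers summed to 49.1 and 52.8 CPM without and 97.4 and 101.7 CPM with LPS, and 1 of 7 tested was called, Hdc, the histamine-forming enzyme (2.64 ± 0.138), with Mcpt4 and Tpsab1 at 0 throughout. Stromal markers summed to 14.7 and 16.8 CPM without and 34.8 and 24.9 CPM with LPS, and Lum, a proteoglycan gene of fibroblasts, had no read in untreated and 78 and 56 reads in stimulated libraries. Erythroid markers summed to 4.78 and 2.66 CPM without and 13.4 and 16.9 CPM with LPS, through Hbb-bt, with Hba-a1, Hba-a2, Alas2, Car1 and Epor at 0. Lymphocyte and NK cell markers stayed under 8.5 CPM in sum, with Cd3e, Ncr1, Gzma and Klrb1c at 0. Plasmacytoid DC markers summed to 285.8 and 287.3 CPM without and 472.3 and 490.3 CPM with LPS, through Bst2 and Tcf4, which other cells also express, while Siglech had 1 read in 1 WT library. Their part in the values above was not tested.

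Of the kinase genes targeted in Grk 3xKO cells, Grk2 and Grk3 were higher after LPS in WT cells. Grk2 was counted at 320.2 and 321 CPM without and 677 and 736 CPM with LPS (1.14 ± 0.0547) and Grk3 at 338 and 341 and 460.1 and 444 CPM (0.41 ± 0.0507). Arrb1, beta-arrestin 1, which binds receptors that these kinases have phosphorylated, fell from 355 and 357 to 193 and 191 CPM (-0.89 ± 0.0563). Grk6 stood at 85.4 and 83.4 CPM before and 91.8 and 101 CPM after LPS, a call at 0.20 that turned to -0.017 with library size alone and was lost with DESeq2 (adjusted p = 0.157) and without each of 3 WT libraries (edgeR adjusted p from 0.0702 to 0.224). Arrb2, beta-arrestin 2, was called at 0.17, turned to -0.049 with library size alone and was lost without untreated replicate 2 (adjusted p = 0.112 by edgeR). In Grk 3xKO libraries Grk2 was at 151 and 146 CPM without and 199 and 184 CPM with LPS and Grk6 at 37 and 37 and 34 and 32.6 CPM, below the WT libraries of the same treatment, and Grk3 at 267 and 263 and 343 and 335 CPM, lower but by less.

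The response to LPS differed between the genotypes for 4070 of 12541 genes (32.5%; edgeR's test of the difference of the responses, Grk 3xKO minus WT). Of the 7561 genes called in WT cells 3255 were among them, 2602 with a smaller or opposite and 653 with a larger response in Grk 3xKO cells; since these genes were chosen by their WT response, which favors a smaller value in the other genotype, that split is a description only. For 507 genes the responses were called in opposite directions, 245 of them higher and 262 lower after LPS in WT. The stimulated Grk 3xKO libraries had the highest mean chi-square per gene (9.02, against 1.59 to 3.07 in the other groups), but not the highest median (0.594, against 0.874 for the stimulated WT libraries), and Gm42418 took 2.16% of the counts of replicate 2 and 0.273% to 0.638% elsewhere; without that library 1716 genes were higher and 1657 lower by the difference.

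Of the 23 genes of the migratory DC program 19 differed between the genotypes, 13 of those called in WT with a smaller or opposite and 3 with a larger response in Grk 3xKO cells, and of the 15 costimulatory and coinhibitory genes 12 differed, 10 and 2. Ccl22 changed by 1.94 in WT and by 0.04 ± 0.0291 in Grk 3xKO cells (difference -1.91 ± 0.0415, edgeR adjusted p = 4.35e-23), Fscn1 by 1.78 and 0.27 ± 0.0426 (difference -1.51 ± 0.0606) and Ccr7 by 1.63 and 1.07 ± 0.0404 (difference -0.56 ± 0.0567). Ccl22 started from 10790 and 10700 CPM in untreated Grk 3xKO libraries, against 5966 and 6080 CPM in untreated WT libraries. Irf8 (-1.41 ± 0.067), Cd86 (-0.88 ± 0.0663), Cd83 (-0.98 ± 0.0671) and Il12b (-1.80 ± 0.129) also had a smaller response, which did not pass the test in Grk 3xKO cells for Cd83 (0.10, edgeR adjusted p = 0.072), whereas Cd274 and B2m rose by more (0.26 ± 0.0634 and 0.76 ± 0.0545). For Cd80 the difference was -0.11 and did not pass the test (adjusted p = 0.318, edgeR). H2-Aa, H2-Ab1 and H2-Eb1 changed by -0.004, 0.09 and -0.05 in Grk 3xKO cells, in place of the WT values of -1.06, -1.17 and -1.20. Their untreated levels differed already, with 1128 and 1082 CPM of H2-Ab1 in Grk 3xKO against 3528 and 3524 CPM in WT libraries, and the stimulated levels were 1191 and 1161 and 1494 and 1644 CPM.

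C1qa, C1qb and C1qc, which fell in WT, changed by -0.21, -0.23 and 0.05 in Grk 3xKO cells, where only C1qb was called lower (edgeR adjusted p = 0.0483), and the differences were 4.38 ± 0.245, 4.01 ± 0.152 and 4.40 ± 0.194. Unlike the sum of the macrophage genes, C1qb was lower in untreated Grk 3xKO (42.6 and 40.6 CPM) than in untreated WT libraries (158 and 162 CPM). Ccr1, which fell in WT, changed by 0.86 (difference 2.41 ± 0.0989). Several interferon-stimulated genes rose by more than in WT, with differences of 4.44 ± 0.305 for Cxcl10, 4.24 ± 0.19 for Ifit2 and 3.27 ± 0.157 for Rsad2, whereas Oasl1, Oasl2 and Stat2 had differences of 0.15, -0.07 and -0.07 that did not pass. Across the list 29 of 40 genes differed, 27 with a larger and 2 with a smaller response in Grk 3xKO cells. Klk1b11 rose by 3.52 ± 0.145 in Grk 3xKO cells (difference 8.64 ± 0.254), with the limit given above on its near-identical copies. Mitosis genes had a median of -3.19 in WT and -1.86 in Grk 3xKO cells, from summed levels of 241.6 and 235.6 CPM in untreated Grk 3xKO libraries, and 15 of 25 differed.

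**Figure D5:**
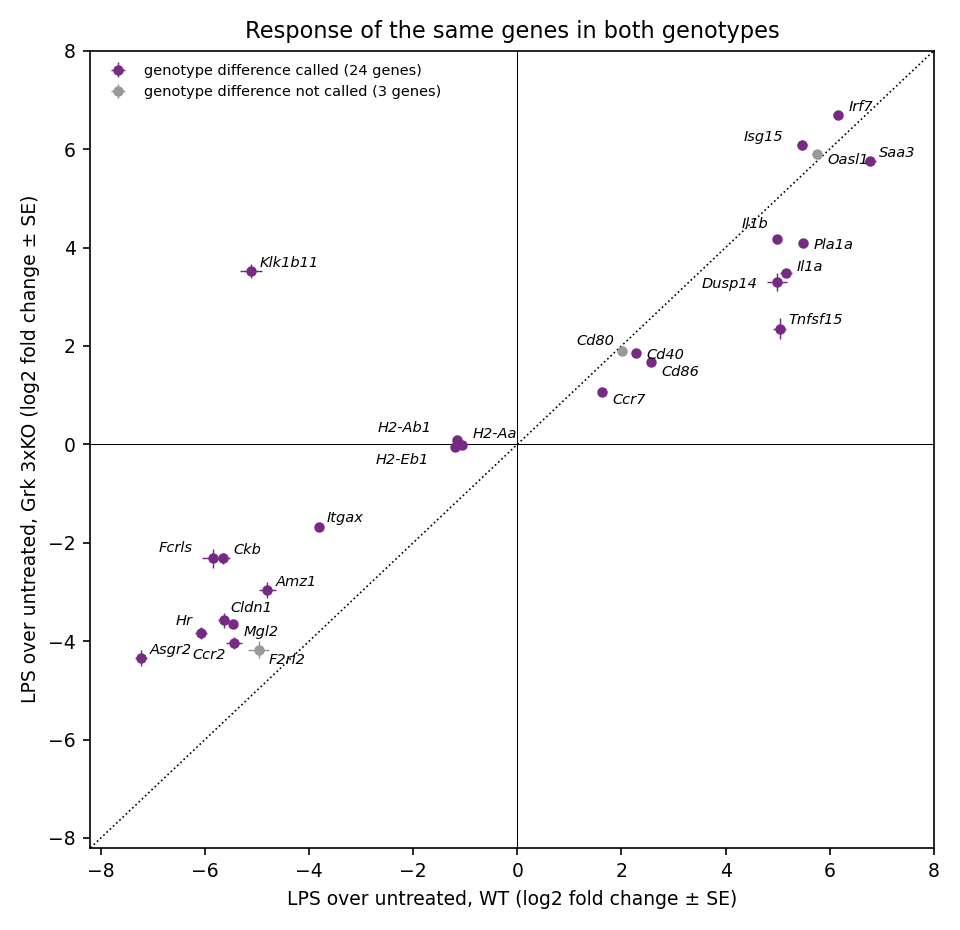
Log2 fold change (LPS over untreated, ± SE) of 27 genes in WT (x axis) and Grk 3xKO cells (y axis), the 20 well expressed genes with the largest change in WT (10 in each direction, mean log2 CPM of at least 3 and more than 3 reads in a library of the lower group), without Enpp2, and 8 maturation genes. Purple points are the 24 genes whose response differed between the genotypes and grey points the 3 for which no difference was called; the dotted line marks equal responses. Enpp2 is left out because its untreated Grk 3xKO level was near 0; Klk1b11 lies in the opposite direction, and as 19 of the genes were chosen for their change in WT, their distance from the dotted line is no measure of a weaker response.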

How the data were processed

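RNA of WT BMDCs was sequenced without and after LPS by the authors. Per the study's methods they aligned reads to mm10 (GRCm38) with STAR 2.7.3a and counted them with featureCounts 2.0.0 within snakePipes 2.1.0. The annotation release and the strand setting are not given in the sources used here, so that reads of overlapping antisense genes may not be told apart. The deposited values are raw counts per gene in 2 tables, 1 per treatment, which were joined on the Ensembl ID, and 0 columns were left without a sample. Of 47937 IDs 47310 matched GENCODE release M21 without and 39192 with the version number, and IDs without a match took 0.0468% of the counts. Several IDs share 67 of the symbols.

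All 8 libraries (4713305 to 6933358 counts) were fitted as 4 groups with edgeR 4.0.16 in R 4.3.3 (TMM scaling and filterByExpr; glmQLFTest after glmQLFit; Benjamini-Hochberg adjusted p below 0.05), and the contrasts were LPS minus untreated in WT and the difference of the 2 genotypes' responses. The methods that the study gives use DESeq2 (1.42.0 here), which was run as an alternative. SEs are the unshrunken log2 fold change divided by the square root of F. With 2 libraries per group the fit had 4 residual degrees of freedom. Scripts were tested on simulated data first. Ratios of genes with 3 counts or fewer in a group have exact 95% intervals, and intervals and floors cover counting error only. Promoter windows came from a RefSeq table of GRCm38.p6, and no protein sequences were used.

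The members, the 40 gene lists and the tests were chosen with earlier results of these data known. Named were, in each direction, the 10 called genes that changed most on the log2 scale, with a mean log2 CPM of at least 3, more than 3 counts in a library of the lower group and no overlap, the 8 largest at the floor in each direction, the maturation genes, the 10 highest genes per kilobase and the members of the lists. The alternatives were DESeq2, RLE factors, library size only, no filter, at least 10 counts in every library, WT libraries only, a replicate block, leaving out each WT library, a test against a log2 fold change of 1, a biological coefficient of variation of 0.4, leaving out the 20 most abundant genes and thinning to 4713305 counts; leaving out each Grk 3xKO library was added after seeing the data. Replicates were compared first (mean chi-square per gene 1.59 without and 3.07 with LPS in WT, 1.74 and 9.02 in Grk 3xKO, above counting noise) and were counted as 2. Some genes are not reported here.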

Additional observations from a re-analysis of the deposited data

Results flagged for a closer look

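The response to LPS differed between the genotypes, by a test of the difference itself (Grk 3xKO response minus WT response, edgeR), for 4070 genes, and for 507 genes both responses were called in opposite directions. Values below are log2 differences for genes named in the text, positive where the Grk 3xKO response lay above the WT response, and why they differ was not tested.

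Of 3859 genes lower in WT BMDCs the difference was called for 1589, 1277 with a smaller or opposite and 312 with a larger response in Grk 3xKO cells. The lectin and adhesion genes Asgr2, Mgl2 and Cldn1 differed by 2.89, 1.81 and 2.06, the chemokine receptor gene Ccr2 by 1.41 and Itgax by 2.15. Fcrls, Ckb, Hr and Amz1 differed by 3.53, 3.34, 2.24 and 1.84. The MHC class II genes H2-Aa, H2-Ab1 and H2-Eb1 differed by 1.05, 1.26 and 1.15. For Klk1b11, which rose in Grk 3xKO cells, the difference was 8.64.

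Of 3702 genes higher in WT BMDCs it was called for 1666, 1325 and 341 of them in these directions. The costimulatory genes Cd86 and Cd40 differed by -0.88 and -0.43 and Ccr7 by -0.56. The cytokine genes Il1a and Il1b differed by -1.68 and -0.82 and Tnfsf15 by -2.69. Saa3, Pla1a and Dusp14 differed by -1.02, -1.41 and -1.68. The interferon-stimulated genes Irf7 and Isg15 rose by more in Grk 3xKO cells, by 0.53 and 0.62. These 2 calls were lost without untreated WT replicate 2 (edgeR adjusted p = 0.124 and 0.601) or untreated Grk 3xKO replicate 1 (adjusted p = 0.108 and 0.0551).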

How the results depend on the processing

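Of 226 genes followed through every alternative, 219 kept their direction and 112 also their side of the threshold. The counts of called genes depended most on the size of change tested against and on the assumed spread. A test against a log2 fold change of 1 left 758 higher and 974 lower genes in WT (365 and 133 for the genotype difference), and a biological coefficient of variation of 0.4, against the 0.0463 measured between these libraries, left 451 and 659 (61 and 11). At that coefficient all 25 mitosis genes and 32 of 40 interferon-stimulated genes were still called, but 0 of the 16 MHC class I and 2 of the 13 MHC class II genes. DESeq2 called 2972 genes higher and 2882 lower in WT, all 5854 also called by edgeR, and 1342 and 1301 for the genotype difference. Library size as the only scaling gave 2443 higher genes in WT. It turned the values of Arrb2 (-0.049), Grk6 (-0.017), Rela (-0.061), Flt3 (-0.026), Zbtb46 (-0.18), Il4i1 (-0.16) and Bcl2l14 (-0.14); of these, Zbtb46 (adjusted p = 0.0234) and Il4i1 (adjusted p = 0.00652, both edgeR) were then called lower. The cause was not tested. Leaving out 1 library (Grk 3xKO libraries were added after seeing the data) gave 3170 to 3730 higher and 3247 to 3871 lower genes in WT, and 1716 to 2088 and 1575 to 2111 for the difference, and turned the values of the uncalled genes Bcl2l14 (-0.16 to 0.26) and Zbtb46 (-0.0071 to 0.082).

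No pairing by replicate number was seen: deviations from the group means of equally numbered WT libraries correlated at -0.013 across genes. These deviations hold counting error, which lowers such a correlation, so that the check cannot exclude a pairing. A fit with the replicate block called 7438 genes in WT and 3884 for the difference. Depth limited genes under about 10 reads, such as Il23a and Il10, and with 2 libraries per group, which may be technical repeats, the spread between independent cultures was not measured.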
